A study of Mus musculus with 77 samples.

Results

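Low-dose levodopa was compared with saline in the indirect pathway spiny projection neurons (iSPN) of mice with a unilateral dopamine lesion. The arrays were chosen by their source label, as Drd2 iSPN of the hemi-parkinsonian condition with chronic low levodopa (8 arrays) or chronic saline (7 arrays), 15 of the 77 arrays in the series and 15 of its 33 iSPN arrays. Each array came from 1 male mouse of 9 to 14 weeks on the C57BL/6J background that carried the Drd2::EGFP-L10a BAC transgene, a ribosomal protein tagged with a green fluorescent protein under control of the Drd2 gene. All 15 mice had received 1 µl of 6-hydroxydopamine (6-OHDA, 3.2 µg/µl) in the right medial forebrain bundle and had been selected after surgery by turning and limb use. Drug treatment began 3 weeks after the lesion. The low-dose mice were given 1 intraperitoneal injection a day of levodopa, at 1 mg/kg for days 1 to 3 and at 2 mg/kg from day 4 until day 9, always together with 12 mg/kg benserazide. The lesioned control mice received saline. The high-dose iSPN group (8 arrays), given 3 mg/kg and then 6 mg/kg with the same dose of benserazide, and the mock-lesioned saline iSPN group (10 arrays) are set beside them where stated, as are the low-dose (12 arrays) and saline (11 arrays) lesioned groups of the Drd1 line, which tags direct pathway neurons (dSPN). Ribosome-bound messenger RNA was taken from the dorsal striatum of the lesioned side of single mice by translating ribosome affinity purification (TRAP) and hybridised to Affymetrix mouse expression arrays.

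Striatal iSPN carry dopamine D2 receptors, which lower cyclic AMP and restrain the cell, and adenosine A2a receptors, which do the opposite. When dopamine is lost these neurons are released from D2 restraint, and levodopa, the precursor of dopamine, brings part of that restraint back. Direct pathway neurons carry D1 receptors, which raise cyclic AMP and drive immediate early genes, the transcription regulators that are switched on within minutes of stimulation. The Drd2 gene is also active in striatal cholinergic interneurons, so the tag is not limited to iSPN.

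Values are log2 signals of the deposited table, and a difference of 1 is a 2-fold change. Of 18194 genes on the array, 13271 were tested, and a gene was called where the adjusted p of the linear model over all 77 arrays (limma, Benjamini-Hochberg) was under 0.05. The median correlation of each of the 15 arrays with its own group was between 0.944 and 0.964. Title numbers fall into runs within which the animal number rises, and no source used here says what such a run represents. All 8 low-dose arrays lay in the run of title numbers 68 to 79, together with 4 saline arrays, whereas the other 3 saline arrays came from 2 earlier runs.

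Of the 8 low-dose arrays, the one with title number 71 stood apart in activity-regulated genes. The mean of the immediate early gene list was 7.06 on array 71, at least 7.56 on the other low-dose arrays and 7.30 to 7.58 on the saline arrays. The mean of the late activity-regulated list was 6.43 on array 71, 7.11 to 7.52 on the other low-dose arrays and 6.79 to 7.12 on the saline arrays. It was kept in every main value, and values without it are given beside the calls that end without it and beside several of the genes it lies far from.

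The labelled cell type was checked against marker genes. Drd2 (D2 receptor) ranged from 11.90 to 12.36 with low-dose levodopa and from 12.12 to 12.54 with saline, and Penk (enkephalin, the iSPN peptide) from 12.72 to 13.13 and from 13.02 to 13.21 in the same groups. Neither was called, with differences of -0.07 ± 0.20 (SE, adjusted p = 0.905) for Drd2 and -0.19 ± 0.07 (adjusted p = 0.132) for Penk. None of the 12 iSPN markers tested was called, and Adora2a (the A2a receptor) was not among the genes tested. Drd1, the dSPN receptor, was also measured well above the filter in these purifications, at a median of 9.67 with low-dose levodopa and 9.47 with saline, with a difference of 0.00 ± 0.15 (adjusted p = 0.994). No marker of oligodendrocytes (14 tested), astrocytes (14), microglia (10), endothelial and mural cells (6), cholinergic interneurons (4), dopaminergic terminals (5) or cortical pyramidal neurons (4) was called. Of all genes tested 4.18% were called, so lists this small, the iSPN markers included, would hold few or no called members in any case. The mean of the oligodendrocyte list was 6.87 to 8.70 with low-dose levodopa and 7.36 to 8.64 with saline, and that of the astrocyte list 6.20 to 7.53 and 6.73 to 7.77, so both overlapped. The mean of the cholinergic interneuron list was 5.48 to 6.60 and 5.37 to 6.75 in the same groups, which overlapped too. The median difference of its 4 tested genes was 0.43, and 3 of the 4 were positive.

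Low-dose levodopa changed 555 of 13271 genes in lesioned iSPN (4.18%), of which 320 rose (2.41%) and 235 fell (1.77%). Of these, 104 changed by over 2-fold, 71 upward and 33 downward, and the median size of the 555 differences was 0.64. Over all genes tested the median difference was 0.00059, the quartiles were -0.15 and 0.17, and the median SE was 0.18. The groups did not overlap at all for 50 genes (0.377%), of which 48 were called. The genes with the highest differences were Hic1, Mapkapk3, Rnd1, Cdkn1a and Fblim1. At the other end stood C030013G03Rik, 0610040B10Rik, Nr4a1, Sema5b and Ntng1. Without array 71 the count of called genes was 741, including 503 of the 555, and without the low-dose array 73 it was 429.

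**Figure D1:**
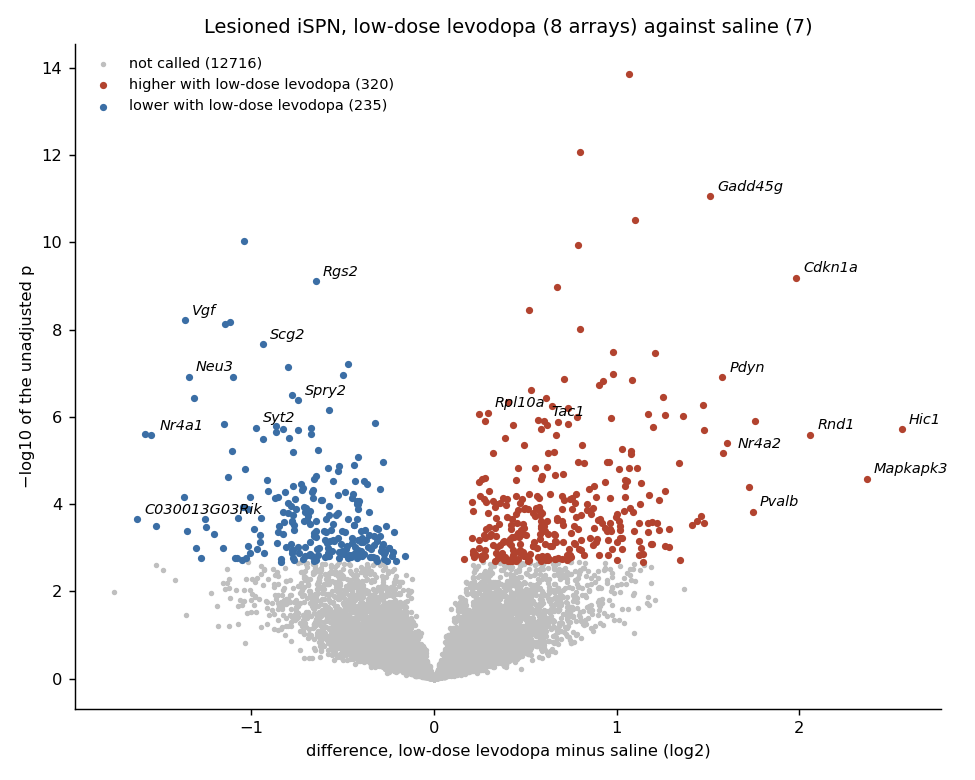
Difference between low-dose levodopa and saline in lesioned iSPN (log2, horizontal axis) against the −log10 of the unadjusted p (vertical axis) for 13271 genes, with the 320 genes called higher in red, the 235 called lower in blue and the others in grey. Called genes reach a difference of 2.56 on the high side and -1.63 on the low side, and many genes of large difference are not called.

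The calls were compared with and without the run in the model. With the run as a fixed block, 470 genes were called, 312 of them among the 555. The share of genes for which the run itself passed the adjusted threshold was 0%. That test compared runs only within groups spread over several of them, which the low-dose and high-dose iSPN groups were not. Its power was not examined. Leaving out the 3 saline arrays outside the run, with no block, gave 515 called genes, 334 of them among the 555. Whether the run or the smaller number of saline arrays removed calls was not tested. Within the run of title numbers 68 to 79 alone, 8 low-dose arrays against 4 saline arrays, only 4 genes were called, while 1360 had an unadjusted p under 0.05 and all 555 differences kept their sign. In what follows a gene is said to lose its call within the run where its adjusted p with the block was 0.05 or more, and the value is given. Because all low-dose arrays lie in 1 run, the blocked difference is the difference within that run. With the model fitted to the iSPN arrays alone, 30 of the 57 called genes among the 65 chosen by rule lost their call. Of the 57, 34 kept their call with any 1 array left out. Sema5b, Csf2ra, Homer1, Baz1a, Kcnf1 and Manf each lost it without 1 particular array, which was saline array 75 for Sema5b, saline array 79 for Csf2ra, Homer1 and Manf, saline array 64 for Baz1a and low-dose array 71 for Kcnf1. Tef lost it without either of 2 arrays, Gnai1 and Kcnd2 without any of 3, and Egr1 and Spred2 without any of 6. Trim66, Eya1, Gad2, Unc13c, Eif3c and Hspa5 lost it without any of 8 arrays, Scn2a and Canx of 9, Kcnq3 of 10, Spred3 and Tiam1 of 11, and B130034C11Rik of 12. The adjusted p in these cases reached 0.163 at most, for Hspa5. In these purified bulk samples, fewer tagged cells and less RNA per cell cannot be told apart.

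Among the genes that fell were several that carry signals out of active neurons. Vgf encodes a secreted precursor of neuropeptides that is induced by activity and growth factors (probe set 1436094_at). Its lowest, median and highest values were 7.99, 8.57 and 9.39 with low-dose levodopa, against 9.84, 9.95 and 10.26 with saline. All 8 low-dose arrays thus lay below all 7 saline arrays, and the difference was -1.36 ± 0.21 (adjusted p = 7.24e-06). Scg2 (secretogranin II, a granin of dense-core vesicles, 1450708_at) reached 8.74, 9.29 and 9.69 with low-dose levodopa, against 9.80, 10.26 and 10.58 with saline. Here too the groups did not overlap, with a difference of -0.94 ± 0.15 (adjusted p = 1.92e-05). Chgb, another granin, fell by 0.35 (adjusted p = 0.0435).

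Nr4a1 (Nur77, an orphan nuclear receptor and immediate early gene, 1416505_at) had 6.97, 8.86 and 9.04 as lowest, median and highest values with low-dose levodopa, against 9.37, 10.07 and 10.71 with saline. The groups did not overlap and Nr4a1 fell to 0.341 of its saline level, a difference of -1.55 ± 0.30 (adjusted p = 0.000493). The lowest of these values was array 71, and without it the difference was -1.32 (adjusted p = 0.00256). Rgs2, which speeds the switching off of G proteins, ranged from 11.26 to 11.69 with low-dose levodopa and from 11.92 to 12.37 with saline. It fell by 0.65 (SE 0.09, adjusted p = 1.27e-06), and each of its 3 probe sets was called lower. Syt10, a calcium sensor for secretion, had 5.04, 6.83 and 7.27 with low-dose levodopa, against 6.72, 8.04 and 8.67 with saline. Its groups overlapped, and the difference was -1.25 ± 0.32 (adjusted p = 0.012, and 0.116 on the iSPN arrays alone).

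**Figure D2:**
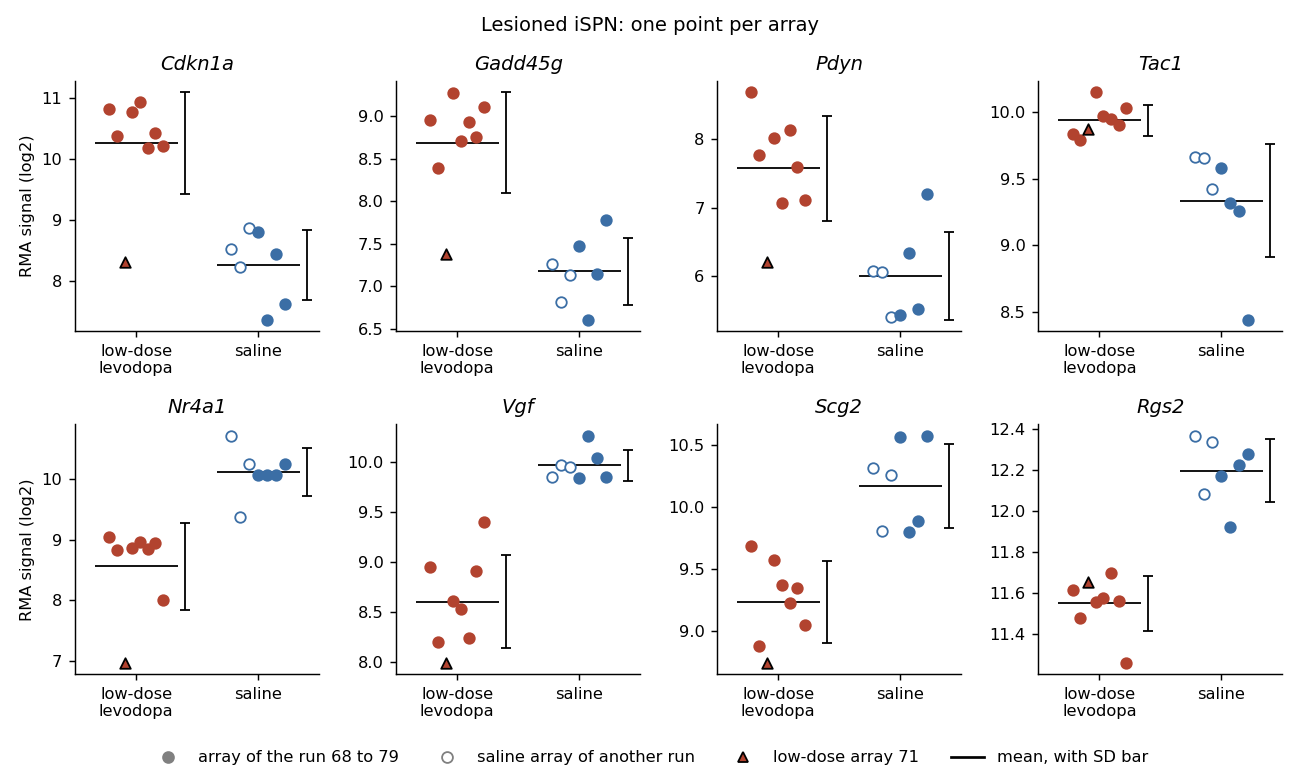
RMA signal (log2, vertical axes) of 8 genes on each array of lesioned iSPN, with low-dose levodopa on the left and saline on the right of each panel, the mean as a line and the SD as a bar. In Tac1, Nr4a1, Vgf, Scg2 and Rgs2 no low-dose array reaches the range of the saline arrays. In Cdkn1a, Gadd45g and Pdyn the low-dose array 71 (triangle) lies among the saline arrays, and open circles are saline arrays outside the run of title numbers 68 to 79.

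Other genes that fell the most have less direct ties to activity. Neu3, a sialidase of the cell surface, ranged from 3.86 to 5.15 with low-dose levodopa and from 5.16 to 6.60 with saline, with no overlap and a difference of -1.34 ± 0.23 (adjusted p = 6.81e-05). Gask1b, a kinase-like protein of the Golgi, fell by 1.31 (adjusted p = 0.00015). Ntng1 (netrin-G1, an axonal adhesion protein) fell by 1.37 and Csf2ra (a cytokine receptor chain) by 1.35, with adjusted p of 0.00589 and 0.0174. On the iSPN arrays alone their adjusted p were 0.0614 and 0.0915. The call of Csf2ra was lost without the saline array 79 (adjusted p = 0.116), and its 2 probe sets differed in sign. Sema5b, a semaphorin that guides axons, fell by 1.52 (adjusted p = 0.0148), called at 1 of its 2 probe sets. It lost its call with the run block (adjusted p = 0.0516). The same held for the unannotated C030013G03Rik, which fell by 1.63 (0.0953 with the run block). It also held for Trim66, which fell by 1.30 (0.0509), and for B130034C11Rik, which fell by 1.28 (0.205). The differences within the run had the same sign for all 4. 0610040B10Rik, a RIKEN transcript, ranged from 2.21 to 5.29 with low-dose levodopa and from 5.17 to 6.21 with saline (difference -1.58, adjusted p = 0.000481). Its lowest low-dose value lay under the filter value of 3.55.

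The genes that rose the most include brakes on the cell cycle and on gene expression. Cdkn1a encodes p21, an inhibitor of cyclin-dependent kinases (1424638_at). Its lowest, median and highest values were 8.32, 10.40 and 10.93 with low-dose levodopa, against 7.37, 8.46 and 8.88 with saline. Array 71 alone among the low-dose arrays lay within the saline range. The difference was 1.98 ± 0.28 (3.96-fold, adjusted p = 1.23e-06), and 2.26 without array 71. Gadd45g, a growth arrest and stress gene of the Gadd45 family, had 7.38, 8.84 and 9.27 with low-dose levodopa, against 6.61, 7.15 and 7.78 with saline. It rose by 1.51 ± 0.19 (2.85-fold, adjusted p = 3.9e-08), with 7 of 8 low-dose arrays above the highest saline array. Hic1, a transcriptional repressor, had 4.88, 6.44 and 9.18 with low-dose levodopa, against 3.31, 3.94 and 5.07 with saline. Its low-dose values were widely spread, 7 of 8 lay above the saline range, and the difference was 2.56 ± 0.49 (5.9-fold, adjusted p = 0.000408). The saline median of Hic1 lay near the filter value of 3.55, so the fold rests on a weak saline signal.

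Several signalling genes rose with them. Rnd1, a small GTPase that loosens the actin cytoskeleton, had 4.68, 7.27 and 8.20 with low-dose levodopa, against 4.15, 4.49 and 6.49 with saline (difference 2.06 ± 0.40, adjusted p = 0.000491). Mapkapk3, a kinase activated by MAP kinases, had 5.14, 8.79 and 10.02 with low-dose levodopa, against 4.79, 5.81 and 7.60 with saline. It rose by 2.37 (adjusted p = 0.00305), with 6 of 8 low-dose arrays above the saline range. Its adjusted p with the run block was 0.0538. Fblim1, an adaptor that links filamin to adhesion sites, rose by 1.76 (adjusted p = 0.000335), but only 4 of its 8 low-dose values exceeded the saline range. Its saline mean of 4.02 was also near the filter value of 3.55. Pnmt, the enzyme that makes adrenaline from noradrenaline, ranged from 6.38 to 9.20 with low-dose levodopa and from 4.20 to 7.86 with saline, with a rise of 1.72 (adjusted p = 0.00415) that was called in each of its 3 probe sets. Car7, a neuronal carbonic anhydrase, rose by 1.48 (adjusted p = 0.000409), and N4bp2, a binding partner of a ubiquitin ligase, by 1.58 (adjusted p = 0.00106). The other probe set of N4bp2 had a difference of 0.32, which was not called. Pvalb, the calcium buffer parvalbumin of fast-spiking interneurons, ranged from 6.98 to 10.19 with low-dose levodopa and from 4.92 to 7.92 with saline. It rose by 1.74 (adjusted p = 0.00918, and 0.078 on the iSPN arrays alone) and was the only one called of 10 GABA interneuron markers tested.

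The Nr4a family split. Nr4a2 (Nurr1) had 5.01, 6.90 and 7.80 with low-dose levodopa, against 4.55, 5.13 and 6.39 with saline, and rose by 1.60 ± 0.32 (adjusted p = 0.000689) where Nr4a1 fell. Of its 6 probe sets, 5 had a positive difference and 3 were called. Nr4a3 had 7.59, 9.63 and 10.04 with low-dose levodopa, against 8.17, 8.81 and 9.09 with saline, and was not called (difference 0.61 ± 0.31, adjusted p = 0.287). Its lowest low-dose value lay below all saline values and 6 of 8 lay above them. The bases upstream of Nr4a1 and Nr4a2 are printed because these relatives moved in opposite directions, and those of Hic1 and Scg2 because each has a full motif and is among the genes described. All 4 are the 250 bases before the transcription start on the gene's own strand, 5′ to 3′, from RefSeq (GRCm38.p6). Capitals mark the motifs searched on both strands, namely the full cyclic AMP response element (CRE, TGACGTCA), its core (TGACG, also counted inside the full element and searched after the windows had been read), the AP-1 site (TGANTCA) and the Egr site (GCGTGGGCG).
Nr4a2, chr2:57124004-57124253, minus strand: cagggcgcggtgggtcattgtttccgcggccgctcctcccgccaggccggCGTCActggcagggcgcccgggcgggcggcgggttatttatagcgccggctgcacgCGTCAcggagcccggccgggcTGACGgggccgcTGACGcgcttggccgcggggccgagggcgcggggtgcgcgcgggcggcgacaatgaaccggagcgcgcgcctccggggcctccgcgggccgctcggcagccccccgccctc
Hic1, chr11:75170256-75170505, minus strand, the more upstream of 2 windows: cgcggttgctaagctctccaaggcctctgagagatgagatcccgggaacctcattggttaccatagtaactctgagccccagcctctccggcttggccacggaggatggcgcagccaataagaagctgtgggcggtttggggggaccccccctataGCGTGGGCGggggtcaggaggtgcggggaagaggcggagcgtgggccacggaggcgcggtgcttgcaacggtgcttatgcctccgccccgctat
Nr4a1, chr15:101266596-101266845, plus strand: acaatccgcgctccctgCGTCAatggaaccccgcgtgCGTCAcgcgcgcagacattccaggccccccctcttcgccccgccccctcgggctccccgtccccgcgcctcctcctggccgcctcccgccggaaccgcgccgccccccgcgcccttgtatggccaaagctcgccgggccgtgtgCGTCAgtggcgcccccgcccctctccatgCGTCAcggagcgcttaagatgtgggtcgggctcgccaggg
Scg2, chr1:79440027-79440276, minus strand: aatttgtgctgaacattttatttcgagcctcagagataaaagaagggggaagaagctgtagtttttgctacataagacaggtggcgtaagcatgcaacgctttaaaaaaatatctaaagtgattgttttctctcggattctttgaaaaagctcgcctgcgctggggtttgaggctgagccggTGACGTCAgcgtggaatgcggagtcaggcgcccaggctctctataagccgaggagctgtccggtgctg
Nr4a1 and Nr4a2 each held 4 cores and no full CRE, Scg2 held 1 full CRE, and Hic1 held 1 Egr site. Windows of 300 bases (250 before and 50 after the start) were found for 263 of the 320 genes that rose and 187 of the 235 that fell. The full CRE stood in 3.12% of the windows of genes that rose, in 4.95% of those that fell and in 2.91% of the windows of all genes tested. For the AP-1 site these shares were 4.26%, 6.31% and 5.06%, for the Egr site 1.42%, 0% and 1.17%, and for the CRE core 33.5%, 34.2% and 29.9%. The shares were not tested. A match is a description of the letters and shows no binding.

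Immediate early genes were called in both directions. Of 41 tested, 6 rose and 2 fell (19.5%, against 4.18% of all genes), and the median difference was 0.17. Fosb, an AP-1 component that accumulates with repeated dopaminergic stimulation, had 7.52, 9.07 and 9.71 with low-dose levodopa, against 7.41, 7.97 and 8.25 with saline. Array 71 was the only low-dose array within the saline range, and the difference was 1.00 ± 0.25 (adjusted p = 0.01). The genes Trib1, Egr2 and Sik1, named after their values were seen, rose by 1.18, 1.14 and 0.84 (adjusted p = 0.00569, 0.0499 and 0.00721). Egr1, a zinc finger regulator, fell by 0.34 (adjusted p = 0.0338), with 7 of 8 low-dose arrays below the saline range. Its adjusted p with the run block was 0.0987. Fos ranged from 4.93 to 7.33 with low-dose levodopa and from 5.72 to 7.94 with saline, with a difference of -0.58 ± 0.47 (adjusted p = 0.577). Arc, a regulator of AMPA receptor traffic, ranged from 7.99 to 9.55 and from 8.14 to 8.60 in the same groups, with a difference of 0.48 ± 0.22 (adjusted p = 0.233). Junb was not called either (difference -0.18, adjusted p = 0.514).

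The late activity-regulated genes, effectors that follow the immediate early wave, had 6 members higher and 3 lower of 28 tested. That is 32.1%, against 4.18% of all genes, and the median difference was 0.21. Besides Cdkn1a, Baz1a (a chromatin remodelling subunit) rose by 1.42 (adjusted p = 0.0143). With the run block its adjusted p was 0.381 at a difference of 0.73. Homer1, a postsynaptic scaffold made in short activity-induced and long forms, rose by 0.46 (adjusted p = 0.00871) at the probe set with the highest mean. Its 6 probe sets were split, with 3 called higher (by 0.46, 1.44 and 1.56) and 3 called lower (by 0.29, 0.33 and 0.41 in size). Which form each probe set reads was not examined. Pim1 (a kinase), Gpr3 (a receptor that raises cyclic AMP without ligand) and Inhba (an activin subunit), named after their values were seen, rose by 1.20, 1.17 and 1.02 (adjusted p = 0.000383, 0.0134 and 0.0228). The lower members were Vgf, Scg2 and Rgs2. Of 22 feedback regulators of MAP kinase signalling, none rose and 4 fell (18.2%), with a median of -0.14. Spry2 (Sprouty 2, an inhibitor of Ras signalling) had 8.88, 9.47 and 10.10 with low-dose levodopa, against 10.01, 10.20 and 10.53 with saline, and fell by 0.75 (adjusted p = 0.00016). Its relatives Spred2 and Spred3 fell by 0.48 and 1.05 (adjusted p = 0.0305 and 0.0475), with adjusted p of 0.0697 and 0.111 with the run block. Without array 71 the adjusted p of Spred3 was 0.0825.

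The response of iSPN to the low dose was set against that of dSPN. In dSPN 34 of the 41 immediate early genes and 22 of the 28 late genes rose under the same regimen, with median differences of 1.56 and 2.24. The difference between the 2 responses (iSPN minus dSPN) was called for 1961 genes (14.8%, of which 7.79% positive and 6.99% negative), and for 239 of the 555 (43.1%). The iSPN difference that chose the 555 is part of this comparison, so the share of 43.1% is not independent of that choice. With the run as a block the difference between the responses was called for 703 genes, of which 660 were among the 1961. Nr4a1 fell by 1.55 in iSPN and had a difference of 2.37 in dSPN, so that the responses differed by -3.92 ± 0.39 (adjusted p = 9.86e-13). Vgf had differences of -1.36 in iSPN and 2.49 in dSPN, and Scg2 of -0.94 and 2.15, with the responses differing by -3.85 (adjusted p = 1.36e-19) and -3.09 (adjusted p = 8.88e-22). Spry2 and Rgs2 likewise fell in iSPN and rose in dSPN, by 1.06 and 0.57, with response differences of -1.81 and -1.22. Cdkn1a rose by 1.98 in iSPN and 2.64 in dSPN, Gadd45g by 1.51 in iSPN and 1.59 in dSPN, and Pdyn by 1.58 in iSPN and 1.61 in dSPN. The differences between these responses, of -0.65 ± 0.36, -0.08 ± 0.24 and -0.03 ± 0.35 (SE), were not called (adjusted p = 0.236, 0.883 and 0.975). Rnd1, Fblim1, N4bp2, Pvalb and Car7 had higher responses in iSPN, by 1.55, 1.26, 1.60, 1.95 and 2.13. In dSPN 15.1% of all genes were called higher and 19% lower (34.1% together), and 55.9% of the 555 were called. Of the 320 genes that rose in iSPN, 136 were called higher and 37 lower in dSPN, and of the 235 that fell, 44 were called higher and 93 lower in dSPN. In dSPN 12 of 14 oligodendrocyte markers were lower with the low dose (median -1.16), against 0 in iSPN, and the part of this in the comparison of responses was not tested.

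**Figure D3:**
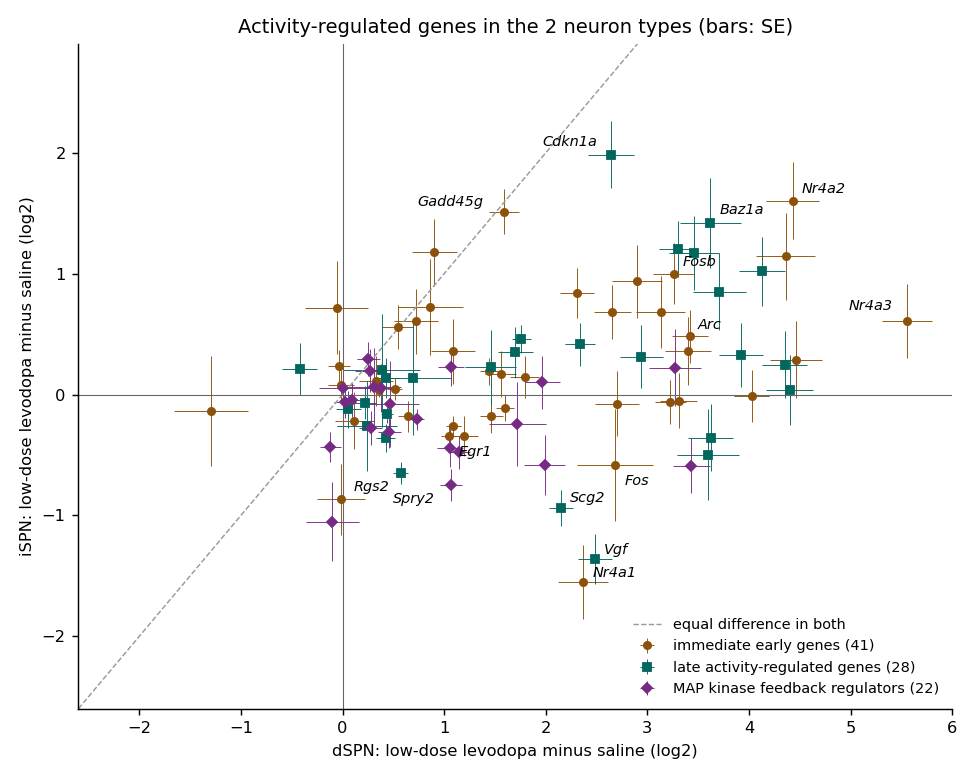
Difference between low-dose levodopa and saline in iSPN (log2, vertical axis) against that in dSPN (log2, horizontal axis) for members of 3 gene lists, with SE bars and a dashed line of equal differences. Most points lie right of the dashed line, and Nr4a1, Vgf and Scg2 lie below 0 in iSPN and above 2 in dSPN.

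Of 22 neuropeptides and granins tested, 2 rose and 3 fell (22.7%, against 4.18% of all genes). Both that rose are peptides of direct pathway neurons. Pdyn (prodynorphin, the precursor of the kappa opioid dynorphin) had 6.21, 7.69 and 8.69 with low-dose levodopa, against 5.39, 6.06 and 7.20 with saline, a rise of 1.58 ± 0.27 (2.99-fold, adjusted p = 6.81e-05). Tac1 (the precursor of substance P) ranged from 9.79 to 10.15 with low-dose levodopa and from 8.44 to 9.67 with saline. All its low-dose arrays lay above all its saline arrays, with a rise of 0.60 ± 0.11 (adjusted p = 0.000335). In tagged dSPN these genes averaged 10.76 and 11.69 with the low dose and 9.16 and 11.33 with saline. Of 14 dSPN markers tested, 2 rose (Pdyn and Tac1) and 2 fell (Calb1, a calcium buffer, by 0.36, and Eya1, a transcription coactivator, by 0.84), with a median of -0.0050. The other probe set of Eya1 had a difference of 0.61, which was not called. Drd1 itself was not called, as given above. Whether tagged or untagged cells carried the Pdyn and Tac1 signal was not tested.

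Of 57 genes of dopamine, adenosine and cyclic AMP signalling, 1 rose and 3 fell (7.02%, against 4.18% of all genes). Besides Rgs2, Gnai1 (an inhibitory G protein subunit) fell by 0.44 (adjusted p = 0.0143, and 0.0617 with the run block). Pde7b (a cyclic AMP phosphodiesterase) fell by 0.26 (adjusted p = 0.0151). Ppp1r2, an inhibitor of protein phosphatase 1, rose by 0.28 ± 0.05 (adjusted p = 0.000335), with 7 of 8 low-dose arrays above the saline range. Th, the enzyme of dopamine synthesis, ranged from 5.72 to 7.35 with low-dose levodopa and from 4.76 to 6.78 with saline and was not called (adjusted p = 0.492).

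Among genes of channels, receptors and release, more called members fell than rose. Of all genes tested, 2.41% were called higher and 1.77% lower. Of 22 sodium and calcium channel genes, 1 had a positive difference, against 50.1% of all genes tested, and the median was -0.23. Only 2 of the 22 were called (9.09%). Cacna1e (the pore of R-type calcium channels) fell by 0.52 (adjusted p = 0.00185). Scn2a (a sodium channel pore) fell by 0.33 (adjusted p = 0.0426, and 0.123 with the run block). The mean of the list was 8.75 to 8.99 with low-dose levodopa and 8.95 to 9.36 with saline. Of 48 potassium channel genes, 8.33% were called. Kcnf1, Kcnq3 and Kcnd2 fell, by 0.77, 0.43 and 0.31, and Kcnip2 rose by 0.26. Kcnd2 lost its call with the run block (adjusted p = 0.0916), and Kcnf1 and Kcnq3 lost theirs without array 71 (adjusted p = 0.061 and 0.0626). Among 43 glutamate receptor and scaffold genes, 10 had a positive difference, 2 rose and 3 fell (11.6% called). Cacng3, an auxiliary subunit of AMPA receptors, had 8.64, 9.13 and 10.07 with low-dose levodopa, against 9.82, 9.89 and 10.18 with saline. Of its low-dose arrays 7 lay below the saline range, and it fell by 0.74 ± 0.14 (adjusted p = 0.000419). Nlgn3, a postsynaptic adhesion protein, fell by 0.55 (adjusted p = 0.00326) at 1 of its 3 probe sets, while the others had positive differences. Of 16 genes of GABA receptors and inhibitory synapses, 2 were called (12.5%). Gabrb2 (a receptor subunit) fell by 0.67 (adjusted p = 0.000392). Gad2 (which makes GABA) fell by 0.23 (adjusted p = 0.042, and 0.0929 with the run block).

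Of 35 genes of synaptic vesicle release, 2 rose and 5 fell (20%, against 4.18% of all genes). The mean of the list was 9.69 to 9.84 with low-dose levodopa and 9.87 to 9.95 with saline, so the groups did not overlap. The median difference was only -0.06, and 13 of the 35 had a positive difference. The part of the called members in the list mean was not tested. Syt2, a fast calcium sensor of release, had 5.72, 6.97 and 7.22 with low-dose levodopa, against 7.26, 7.75 and 8.12 with saline, with no overlap and a fall of 0.97 ± 0.19 (adjusted p = 0.000392). The other probe sets of Syt2 had differences of -0.43 and -0.44, which were not called. Its relatives Syt10, Syt6 and Syt1 fell by 1.25, 0.58 and 0.36. Unc13c, a vesicle priming factor, rose by 0.74 (adjusted p = 0.0412), with an adjusted p of 0.113 with the run block and 0.097 without array 71. Cplx1 (complexin 1) rose by 0.25 (adjusted p = 0.000275). Of 66 genes of actin and dendrite remodelling, 4 rose and 3 fell (10.6%), among them Rnd1 and Ntng1. Tiam1, an activator of Rac, rose by 0.43 (adjusted p = 0.0495) at 1 of its 2 probe sets. Its adjusted p was 0.067 with the run block and 0.0739 without array 71.

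Of 40 genes of the unfolded protein and heat shock response, 4 rose and 1 fell (12.5%, against 4.18% of all genes), with a median of 0.15. Manf, a stress-induced factor of the endoplasmic reticulum, had 8.89, 10.08 and 10.30 with low-dose levodopa, against 8.14, 8.98 and 9.60 with saline, a rise of 0.78 (adjusted p = 0.0113, and 0.0583 without the saline array 79). Hspa5 (the chaperone BiP) rose by 0.49 (adjusted p = 0.0424) and Canx (calnexin, a lectin chaperone) fell by 0.47 (adjusted p = 0.0443). With the run block their adjusted p were 0.0283 and 0.411, and Canx had 0.123 without array 71. The other members that rose were Dnajb4 and Dnajb1, co-chaperones of Hsp70, by 0.25 and 0.21 (adjusted p = 0.00334 and 0.0229). Mvd, an enzyme of sterol synthesis, rose by 0.74 (adjusted p = 0.00598) and was the only one called of 21 in its list. Of 21 clock genes, Tef (a transcription factor) rose by 0.27 (adjusted p = 0.0205) and Rora (a nuclear receptor) fell by 0.41 (adjusted p = 0.00648). No other probe set of either gene was called. Each gene had a probe set of opposite sign, at -0.40 for Tef and 0.21 for Rora.

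Few genes of energy and protein supply were called. Of all genes tested 4.18% were called, so lists of this size would hold few called members in any case. None was called among 68 genes of oxidative phosphorylation and 35 of the proteasome, with medians of 0.05 and 0.06. Differences were positive for 47 of the 68, for 21 of the 35, for 24 of 42 translation factors and for 32 of 42 cytosolic ribosomal protein genes. Of all genes tested 50.1% had a positive difference. Of 42 translation factors only Eif3c was called, with a fall of 0.27 (adjusted p = 0.0381, and 0.0697 with the run block). The other probe sets of Eif3c had negative differences that were not called. Of 42 cytosolic ribosomal protein genes 1 was called, and that was Rpl10a, the gene whose product carries the tag. It ranged from 12.08 to 12.34 with low-dose levodopa and from 11.79 to 12.03 with saline, with no overlap and a difference of 0.29 ± 0.05 (1.23-fold, adjusted p = 0.000266). Its single probe set was not examined for its match to the transgene, so transgene and native transcripts cannot be told apart here.

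**Figure D4:**
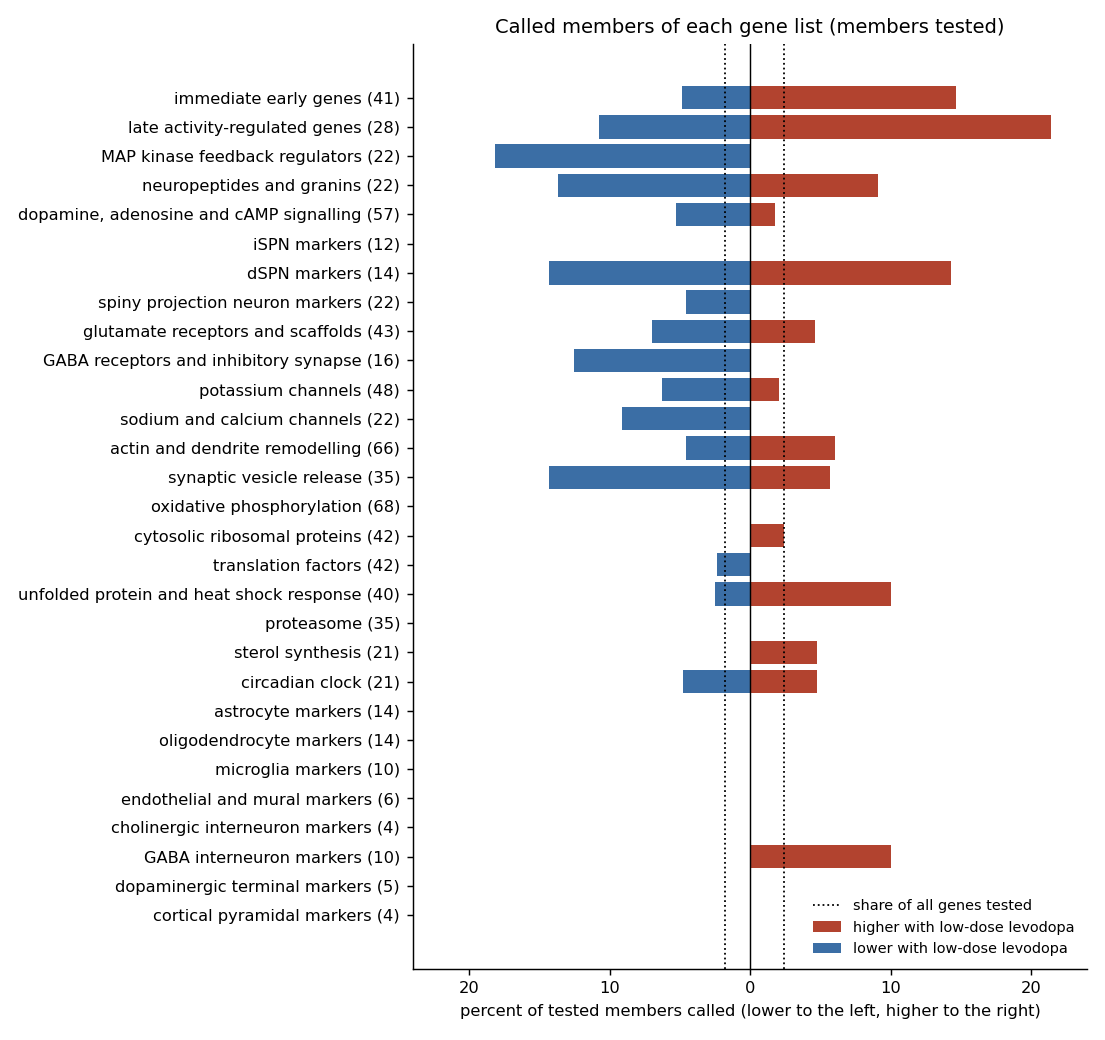
Percent of the tested members of 29 gene lists that were called lower (blue, to the left) or higher (red, to the right) with low-dose levodopa than with saline in lesioned iSPN, with the number tested in brackets and the shares of all genes as dotted lines (1.77% and 2.41%). Immediate early and late activity-regulated genes have called members on both sides, while MAP kinase feedback regulators, GABA receptor genes and sodium and calcium channels have them on the low side alone.

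The levels were also set beside those of mock-lesioned iSPN, which do not share arrays with the low-dose group. Low-dose levodopa and mock lesion differed in 1455 genes (11%, of which 5.89% higher and 5.08% lower), and in 269 of the 555 (48.5%). The 555 were chosen on the same low-dose arrays, so the share of 48.5% is not independent of that choice. Vgf had a median of 8.57 with low-dose levodopa and 8.25 after mock lesion, and the difference of 0.29 was not called (adjusted p = 0.368). Rgs2 differed by -0.05 (adjusted p = 0.803), whereas Nr4a1 and Scg2 were higher with low-dose levodopa than after mock lesion, by 1.28 and 0.96 (adjusted p = 0.000779 and 2.37e-07). Lesion with saline differed from mock lesion by 2.83 for Nr4a1, 1.65 for Vgf, 1.90 for Scg2, 1.91 for Syt10 and 0.60 for Rgs2. This comparison shares the lesioned saline arrays with the low-dose comparison, so these values are given side by side only. Pdyn had a difference of -0.99 between lesion and mock lesion, and of 0.59 between low dose and mock lesion (adjusted p = 0.117). Fosb was higher with low-dose levodopa than after mock lesion by 1.80 (adjusted p = 1.94e-08), Cdkn1a by 1.54 (adjusted p = 8.11e-06) and Gadd45g by 1.82 (adjusted p = 6.92e-13). No low-dose array shared a run with a mock array, and with the run as a block 82 genes remained called between these groups.

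**Figure D5:**
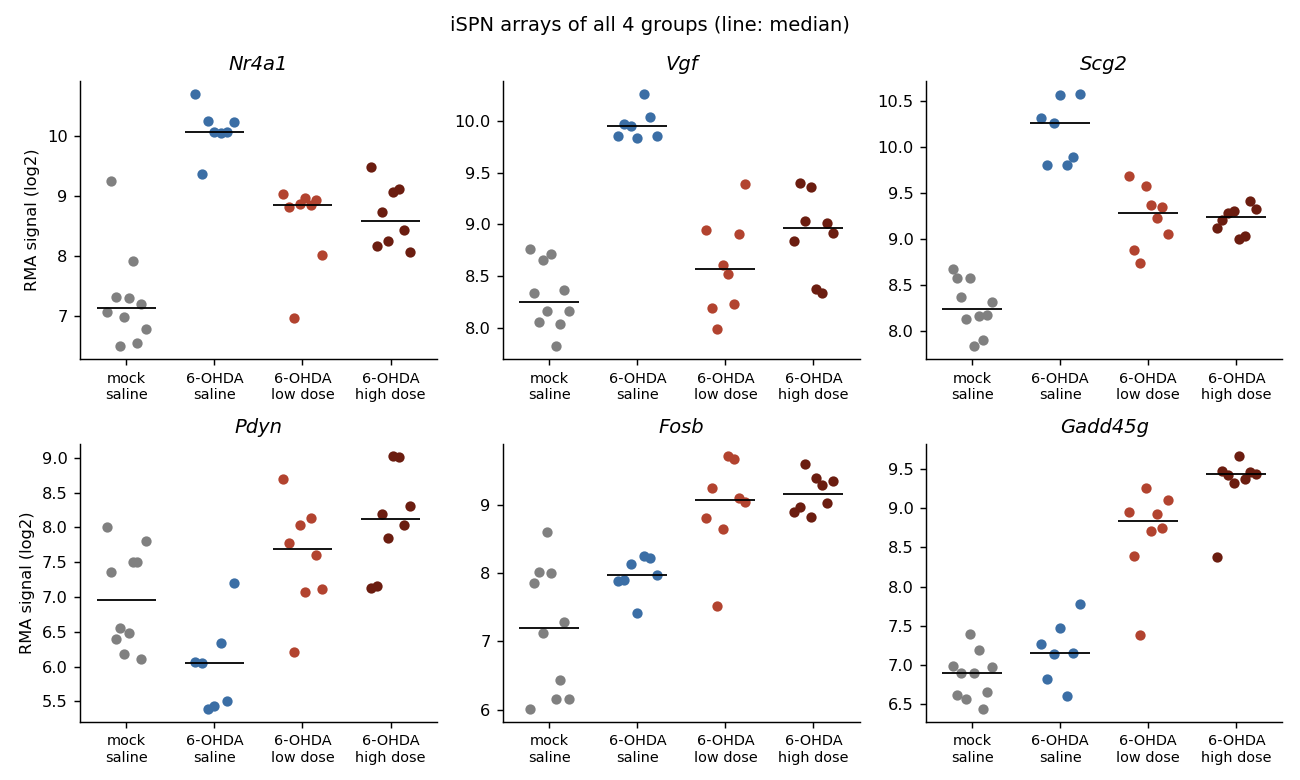
RMA signal (log2, vertical axes) of 6 genes on every iSPN array, in the order mock lesion with saline, 6-OHDA with saline, with low-dose and with high-dose levodopa, with a line at each median. The low-dose medians of Nr4a1, Vgf and Scg2 lie between those of mock and 6-OHDA with saline, those of Pdyn, Fosb and Gadd45g lie above both in the low-dose group.

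High dose and low dose were told apart by few genes in iSPN. They differed in 23 genes (0.173%), 15 higher (0.113%) and 8 lower (0.0603%) with the high dose, and 4 of the 555 were among them (0.721%). The 555 were chosen on the same low-dose arrays, so this share is not independent of that choice. Wfdc18, a small secreted protein, averaged 9.06 ± 0.79 with the high dose, 7.10 ± 0.59 with the low dose (SD, n = 8 each) and 5.64 ± 1.02 with saline (n = 7). Its difference between high and low dose was 1.95 (adjusted p = 0.00187). Ptgs2 (cyclooxygenase 2), Rasl11b, Klf10 and Synpr followed with differences of 1.43, 0.83, 0.79 and 0.64. The lowest were Slc31a2, Nkain4, Ubr3, Fbxo2 and 6820431F20Rik, between -1.39 and -0.56. Nr4a1, Vgf, Scg2, Pdyn and Cdkn1a were not called, with differences of 0.11, 0.31, -0.03, 0.51 and 0.22. All 8 high-dose arrays lay in the run of title numbers 56 to 67, so dose and run were linked only through saline arrays. With the run as a block no gene was called between the doses (limma), while 1016 had an unadjusted p under 0.05.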

How the data were processed

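Ribosome-bound RNA of single mice was measured on 77 arrays in 8 groups, by line, surgery and drug, mapped from the labels. The authors deposited 1 log2 signal for each probe set, made by RMA in affy (version not stated), per the submitters' processing notes. Values ran from 1.34 to 14.5. No detection calls or scanner files were used, and the precision is limited by the number of arrays. Of 45101 probe sets, 34958 had 1 symbol, 932 several and 9211 none, and the last kinds were left out of the gene table. A gene was its probe set with the highest mean, tested if that exceeded the 40th percentile of probe set means (3.55). limma 3.58.1 in R 4.3.3 (lmFit, eBayes) was fitted to all 77 arrays as group means, with 69 residual degrees of freedom, two-sided tests and Benjamini-Hochberg adjustment per comparison, and 0.05 was the threshold for the adjusted p. Run was no term in this model. The labels name separate animals as replicates. Alternatives were the run as a block or alone, fewer arrays, array weights, other normalization, filters and probe set choices, marker covariates and each array left out. Gene lists were described by counts and medians, with no set test. The members and lists were chosen with earlier results of these data known. The rule named 65 genes, from the 12 highest and 12 lowest called differences, up to 3 called members of each list and a panel of which 15 genes were measured, and in other comparisons the 5 highest and 5 lowest. Chgb, Trib1, Egr2, Sik1, Pim1, Gpr3, Inhba, Calb1, Pde7b, Kcnip2, Syt1, Syt6, Cplx1, Dnajb1, Dnajb4 and the genes of the last part were chosen after their values were seen. The scripts were tested on simulated data. Promoter windows came from RefSeq (GRCm38.p6).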

Additional observations from a re-analysis of the deposited data

Results flagged for a closer look

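In 14 of 130 sets of 7 or 8 values, 1 array stood apart from the rest of its group by Dixon's test, where chance gives about 1 in 20. The low-dose array 71 was the far one in 9 of them, with Rnd1 at 4.68, Cdkn1a at 8.32, Pnmt at 6.38, Gadd45g at 7.38, C030013G03Rik at 3.60, B130034C11Rik at 5.87, Baz1a at 5.29, Nlgn3 at 8.96 and Mvd at 6.65. Without it the differences of Rnd1, Gadd45g, Baz1a and Mvd were 2.39, 1.70, 1.75 and 0.89, against 2.06, 1.51, 1.42 and 0.74 with it. C030013G03Rik, which array 71 lowered, had a difference of -1.24 without it. The other far arrays were low-dose array 73 for Drd2 (11.90), saline array 75 for C030013G03Rik (6.13) and Kcnq3 (10.51), and saline array 79 for Nr4a2 (6.39) and Tac1 (8.44).

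The response to the low dose differed between iSPN and dSPN (interaction term of limma, adjusted p under 0.05) for 34 of the 65 named genes. Over all genes tested the share was 14.8%. Most of the 65 were chosen on the iSPN difference, which is part of this comparison, so the count is not independent of that choice. The difference (iSPN minus dSPN, log2) was positive for Rnd1 (1.55), Fblim1 (1.26), Pvalb (1.95), N4bp2 (1.60), Car7 (2.13), Ppp1r2 (0.37), Tiam1 (0.65), Unc13c (1.00), Rpl10a (0.28) and Tef (0.57). It was negative among transcription regulators for Nr4a1 (-3.92), Nr4a2 (-2.83), Nr4a3 (-4.94), Fos (-3.27), Fosb (-2.26), Junb (-0.83) and Egr1 (-1.39). It was also negative for the synaptic and activity genes Arc (-2.94), Homer1 (-1.30), Baz1a (-2.20), Vgf (-3.85), Scg2 (-3.09), Rgs2 (-1.22), Penk (-0.30), Syt10 (-2.69), Cacng3 (-1.53), Kcnf1 (-1.39) and Gad2 (-0.48), and for the MAP kinase regulators Spry2 (-1.81) and Spred2 (-1.62). The remaining ones were C030013G03Rik (-3.39), 0610040B10Rik (-1.54), Csf2ra (-1.78) and Gask1b (-0.97).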

How the results depend on the processing

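The count of 555 called genes came to 470 with the run as a fixed block. It was 4 within the run of title numbers 68 to 79 alone. On the iSPN arrays alone it was 153, and on the 15 arrays alone 46. Each of the last 3 fits estimated the spread from its own arrays alone, which were fewer. Whether fewer arrays or a different spread among them lowered these counts was not tested. Leaving out 1 array at a time gave 429 to 741. Other settings (array weights, normalization, filters, probe set choice, marker covariates) gave 377 to 653. Of the 57 called genes among the 65 named, 34 kept the call with any 1 array left out. The call was lost by 17 with the run block, 30 on the iSPN arrays alone, 48 on the 15 arrays alone and 57 within the run alone. Among the 30 were Fosb, Homer1 and Pnmt, with adjusted p of 0.136, 0.109 and 0.108. Sema5b, Baz1a, Egr1 and Syt10 (0.122, 0.135, 0.132 and 0.116) and Pvalb, Ntng1 and Csf2ra (0.078, 0.0614 and 0.0915) were also among them. Reversed values were those of Drd1, which had no called difference, at -0.10 with the mean of its probe sets, -0.018 with the oligodendrocyte covariate and -0.086 to 0.12 with 1 array left out, and Nlgn3 at 0.15, Tiam1 at -0.33 and Tef at -0.40 with the probe set of largest variance. The 23 genes between high and low dose became 0 with the run block, 1 on the arrays of the contrast and 42 with the mean of the probe sets. The 1961 genes of the difference between neuron types became 703 with the run block. The 1455 between low dose and mock lesion became 82 with the run block and 451 on the arrays of the contrast. The cause of these shifts was not tested. No paired analysis was possible because the replicate numbers are not shared between groups.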

Other observations

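The genes with the smallest adjusted p in the comparison of low-dose levodopa with saline were mostly not those with the largest differences, and several lay outside the rule for named genes. They were named after their values were seen. Tra2a, a splicing regulator, averaged 9.87 ± 0.18 with low-dose levodopa and 8.81 ± 0.20 with saline (SD, n = 8 and 7), with no overlap and an adjusted p of 1.85e-10 (limma). Carhsp1, an RNA-binding protein, averaged 10.87 ± 0.10 with low-dose levodopa and 10.07 ± 0.18 with saline, also without overlap. Mknk2, a kinase of the translation factor eIF4E, averaged 10.77 ± 0.31 and 9.67 ± 0.16 in the same groups. Chordc1, a partner of the chaperone Hsp90, rose by 0.79 and the splicing factor Srsf3 by 0.52. Among genes that fell, Tfrc (the transferrin receptor) averaged 7.03 ± 0.51 with low-dose levodopa and 8.18 ± 0.31 with saline, and Ncam1 (a neural adhesion protein) averaged 8.91 ± 0.29 and 9.70 ± 0.28, with no overlap for either. Slc12a5, the neuronal chloride exporter KCC2, fell by 0.50 (adjusted p = 6.81e-05).

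Of 3086 probe sets above the filter that carry no symbol or several symbols, 91 were called, 40 higher and 51 lower. Of all 27060 probe sets above the filter, 983 were called, 550 higher and 433 lower.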
